A study of Arabidopsis thaliana with 18 samples.

Results

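Xyloglucan endotransglucosylase/hydrolases (XTH) are secreted enzymes of the plant cell wall, and 10 of the 33 Arabidopsis XTH genes matched by locus are described here. The members were taken by locus from the array's annotation: XTH4 (AT2G06850), XTH15 (AT4G14130), XTH17 (AT1G65310), XTH18 (AT4G30280), XTH19 (AT4G30290), XTH22 or TCH4 (AT5G57560), XTH23 (AT4G25810), XTH24 (AT4G30270), XTH25 (AT5G57550) and XTH31 (AT3G44990). Each had 1 probe set, none of them of the kind whose probes match several genes. The table held 22591 probe sets with a locus. Xyloglucan is a hemicellulose that lies on and between cellulose microfibrils. An XTH enzyme cuts a xyloglucan chain and rejoins the cut end to another chain, which can loosen or strengthen the wall, and some family members act mainly as hydrolases. TCH4 was found as a gene whose transcript rises when a plant is touched, and several relatives respond to hormones, darkness and mechanical stimuli.

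Leaf RNA was measured on 18 Affymetrix ATH1 arrays, 3 in each of 6 groups, and the study asked what StZFP2, a potato C2H2 zinc finger gene, does to the wound response when it is over-expressed. The wild type was Col-0, and the other genotype, called OE here, stands for OEEV47-1 and OEEV47-2, which the sample labels pool and the series design names separately. Each genotype was sampled unwounded (control), at 1 h and at 6 h after wounding. No age, promoter of the transgene or hour of harvest is given, and no unwounded group at 6 h is named, so at 6 h wounding and time of day cannot be told apart. The labels do not say that replicates were separate plants, so p-values cover only the spread between samples, perhaps technical. In bulk leaf RNA, fewer cells of a type and less RNA per cell cannot be told apart.

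Values are MAS5 signals, a linear brightness that the authors scaled to a trimmed mean near 500 on each array. Median signals ran from 127.5 to 161.1, and precision is limited by how many arrays there are. A signal below the 40th percentile of its array, which lay between 67.3 and 86.5, is called dim here. The Col-0 arrays correlated within their groups at r = 0.946 to 0.977 and the OE arrays at r = 0.890 to 0.983. By correlation, 6 of 9 OE arrays were nearest to an array of another treatment label, against 0 of 9 Col-0 arrays. Results that rest on the treatment labels of OE arrays are therefore given as labelled. All 4 leaf mesophyll markers were above the 40th percentile and summed to signals of 99992 to 143646 on the 18 arrays, while the single senescence marker, SAG12, was dim on every array. Of the flower markers, AP3 was dim on every array and AG reached the 40th percentile on 3 of 18. Of the root markers, EXPA7 was dim on every array, COBL9 reached it on 4 and PYK10 on 9.

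Changes in Col-0 come from a limma fit of the 9 Col-0 arrays, on log2 signal, with p-values adjusted by Benjamini-Hochberg over 14823 probe sets that passed a filter on dim signals. That choice bears on the results. An earlier analysis of these data was known when it was made, in which a fit of all 18 arrays called far fewer probe sets at 1 h than the fit of Col-0 alone. The reason for it was the scatter of the OE arrays, which enters the error of a Col-0 comparison when all arrays are fitted. The fit of all 18 arrays gives the same changes with larger errors, and its counts are given beside each Col-0 count below. Of the 10 members, 9 passed the filter, and XTH15 was dim on all 18 arrays, with signals between 11.99 and 59.99. XTH15 was not tested.

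**Figure D1:**
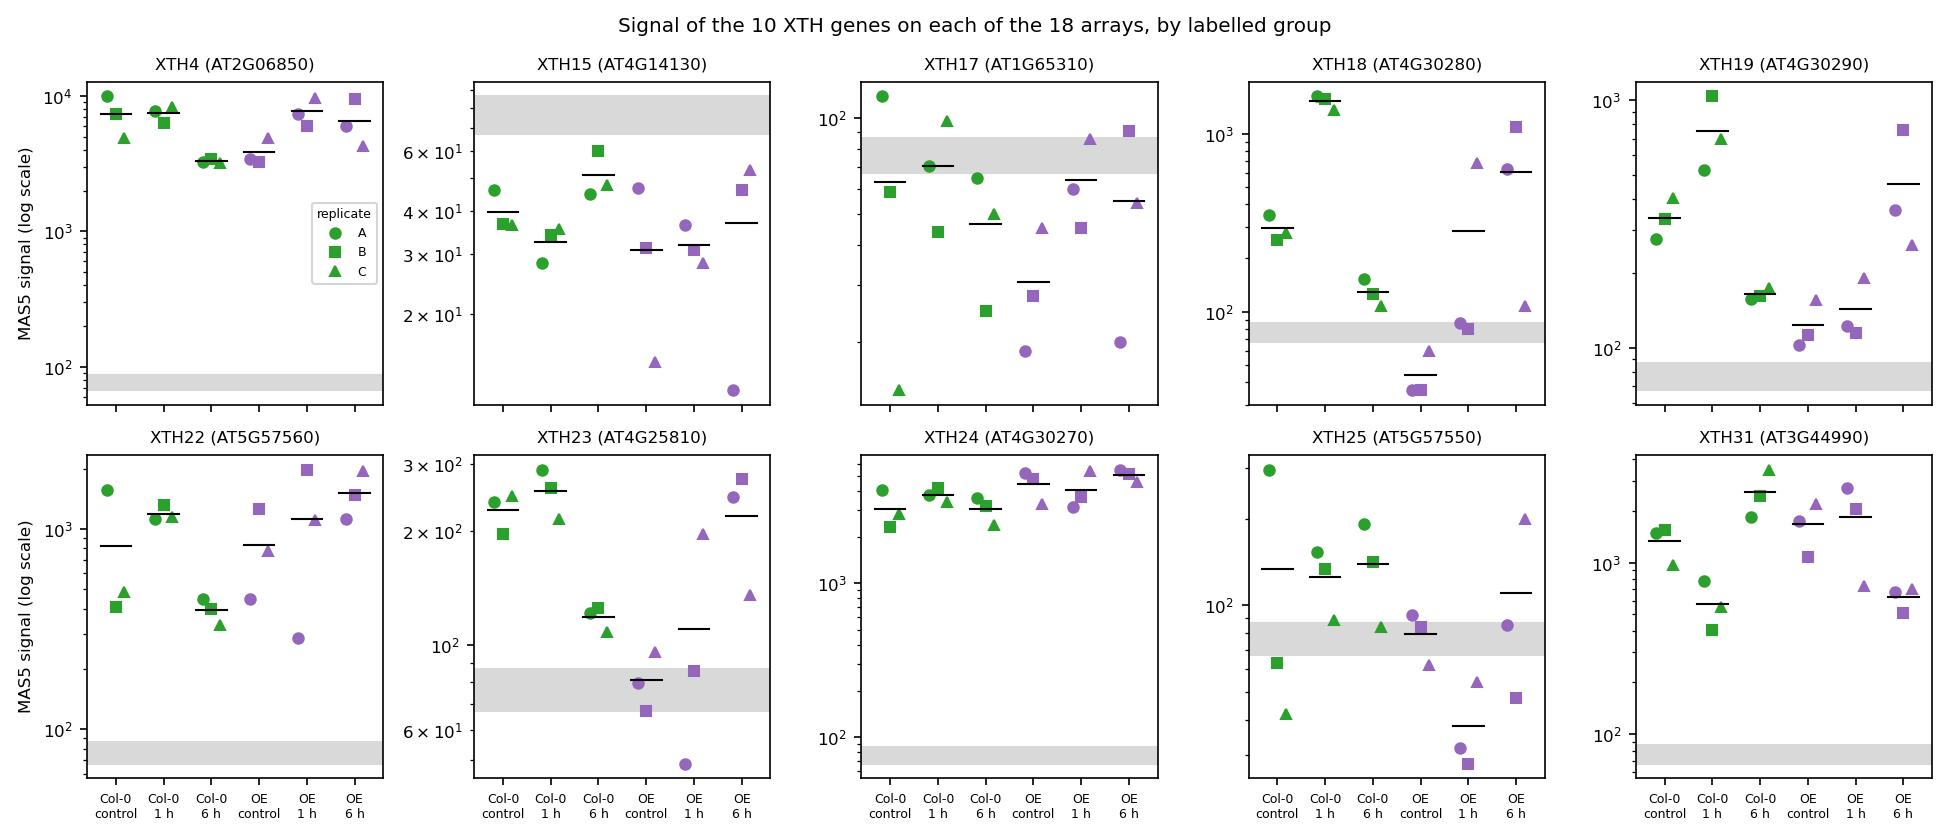
Signal of each of the 10 genes (log axis, arbitrary units) on the 18 arrays, by labelled group, with Col-0 in green and OE in purple. Symbols give replicates A, B and C, black lines the mean of 3 arrays, and the grey band the 40th percentile of the arrays, from 67.3 to 86.5. XTH18 spans 108 to 1622 in Col-0, and all XTH15 points lie below the band.

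One hour after wounding, XTH18 and XTH19 rose in Col-0 leaves and XTH31 fell. These were 2 of 9 tested members higher and 1 lower, beside 3.64% of all probe sets higher and 2.2% lower. XTH18 belongs to a group of closely related genes with XTH17, XTH19 and XTH20, best known from roots. Its signals were 350, 253 and 277 in the control arrays and 1622, 1571 and 1357 at 1 h. Every 1 h array was above every control array, and the gene was 5.20-fold higher (log2 2.38 ± 0.17 SE, n = 3 against 3, limma adjusted p = 3.56e-05). Its close relative XTH19 had signals of 275, 331 and 401 in controls and 523, 1039 and 698 at 1 h. The groups did not overlap, and the rise was 2.18-fold (log2 1.13 ± 0.23 SE, limma adjusted p = 0.0127). XTH31, of a clade in which xyloglucan hydrolase activity occurs, had signals of 1482, 1538 and 965 in controls and 777, 404 and 548 at 1 h. Again the groups did not overlap, and the gene was 2.34-fold lower (log2 -1.23 ± 0.27 SE, limma adjusted p = 0.0213).

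The fit of all 18 arrays called 0 of the 9 members at 1 h, with 3 at an unadjusted p below 0.05, and 4 probe sets in all against 866. Its limma adjusted p was 0.189 for XTH18, 0.176 for XTH19 and 0.213 for XTH31. The XTH31 call in the fit of 9 arrays was also lost without Col-0 1 h array B (adjusted p = 0.103), 1 h array C (0.0717) or control array B (0.0841), and with no variance trend (0.0588). Of all calls at 1 h, 62.4% were higher, against 83.9% after subtraction of array medians, a scaling that moved the median change of all probe sets from -0.09 to 0.03 on the log2 scale. Relative to the median of all probe sets, the log2 changes were 2.47 for XTH18, 1.21 for XTH19 and -1.14 for XTH31. The median of the 9 members was 0.40.

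TCH4 did not pass the test at 1 h, and its control arrays disagreed. Control array A read 1576, and arrays B and C read 406 and 486. The 1 h arrays read 1118, 1316 and 1153, above controls B and C and below control A. The log2 change was 0.82 ± 0.38 (SE, limma adjusted p = 0.247), and without control array A it was 1.43 (adjusted p = 0.000526). The other touch genes in the list were the calmodulin-like genes TCH2 and TCH3. TCH3 rose at 1 h by log2 0.79 ± 0.14 (limma adjusted p = 0.00592), and TCH2 was at 0.75 ± 0.28 (adjusted p = 0.147).

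XTH25 showed the same control array apart. Its control signals were 297 in array A and 63.1 and 41.9 in arrays B and C, the last pair dim, against 153, 134 and 88.8 at 1 h. XTH17 was dim on 13 of 18 arrays, and its Col-0 controls ran from 14.1 to 117. Neither gene passed the test in any Col-0 comparison in the fit of 9 arrays, and the sign of the XTH17 and XTH25 changes at 1 h turned when control array C was left out. XTH24, first described as the meristem gene MERI-5, was bright on every array and stayed between 2312 and 4138 in Col-0. Its log2 change at 1 h was 0.33 ± 0.20 (SE, limma adjusted p = 0.387). XTH4 and XTH23 overlapped between control and 1 h, with log2 changes of 0.06 ± 0.21 and 0.16 ± 0.17.

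At 6 h after wounding, XTH4, XTH18, XTH19 and XTH23 fell below the unwounded controls and XTH31 rose above them. These were 4 of 9 tested members lower and 1 higher, beside 13.6% of all probe sets lower and 15.4% higher. XTH4, known from expanding tissue and stems, read 9919, 7369 and 4875 in controls and 3245, 3415 and 3167 at 6 h. All arrays at 6 h were below all controls, and the fall was 2.17-fold (log2 -1.11 ± 0.21 SE, limma adjusted p = 0.00173). XTH18 read 152, 125 and 108 at 6 h, each below its lowest control, and was 2.29-fold lower (log2 -1.20 ± 0.17 SE, limma adjusted p = 0.00028). XTH19 read 157, 162 and 174, and was 2.02-fold lower (log2 -1.01 ± 0.23 SE, limma adjusted p = 0.00528). XTH23 read 239, 196 and 246 unwounded, and 121, 125 and 109 after 6 h. The groups did not overlap, and the fall was 1.91-fold (log2 -0.93 ± 0.17 SE, limma adjusted p = 0.00168). XTH31 read 1850, 2434 and 3489 at 6 h, each above its highest control, and was 1.93-fold higher (log2 0.94 ± 0.27 SE, limma adjusted p = 0.0218).

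With all 18 arrays fitted, 1 of the 9 members was called at 6 h, beside 1022 of 14823 probe sets lower and 1329 higher. The member called was XTH4, lower at 6 h (limma adjusted p = 0.0205). The others had an adjusted p of 0.272 for XTH18, 0.0509 for XTH19, 0.0929 for XTH23 and 0.122 for XTH31. The XTH31 call in the fit of 9 arrays was lost without 6 h array B (0.0555), 6 h array C (0.093) or control array C (0.0725). TCH4 read 447, 399 and 332 at 6 h, overlapping its controls, with a log2 change of -0.80 ± 0.38 (adjusted p = 0.142) that passed the test without control array B (-1.17, adjusted p = 0.047). XTH25 passed without control array A (1.35, adjusted p = 0.015). XTH24 was at 0.01 ± 0.20 against control.

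**Figure D2:**
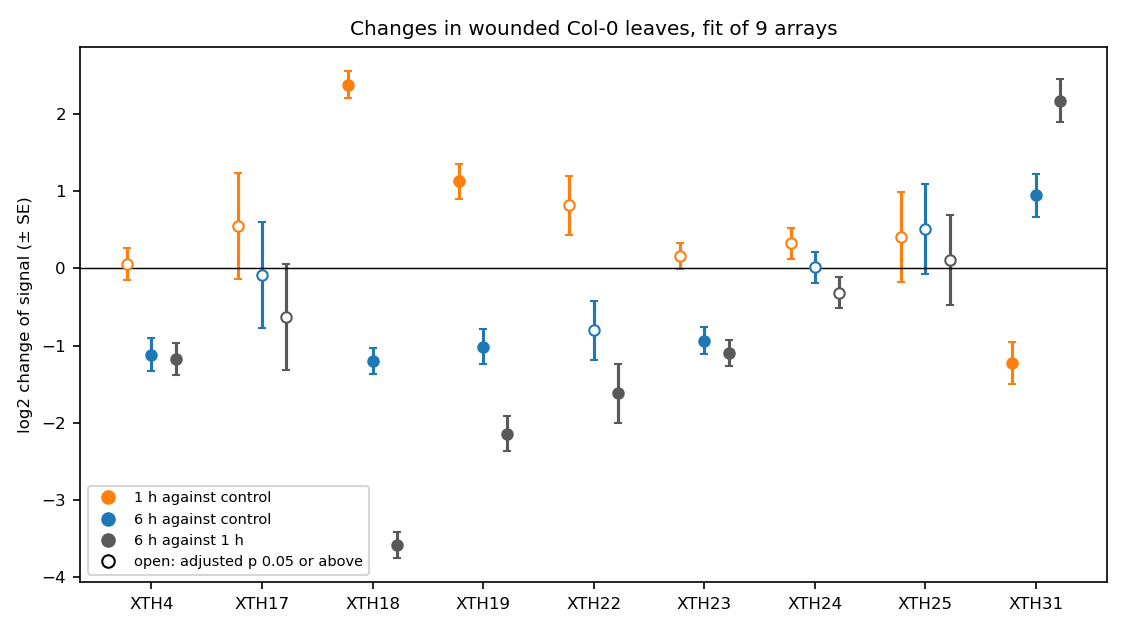
Log2 change of signal (vertical axis) with its standard error for the 9 tested genes in Col-0, from the fit of 9 arrays with 3 per group. Filled points have an adjusted p below 0.05; XTH18 goes from 2.38 at 1 h to -1.20 at 6 h, and XTH31 from -1.23 to 0.94.

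The comparison of 6 h with 1 h held the most member calls. Lower at 6 h were XTH4, XTH18, XTH19, TCH4 and XTH23, and higher was XTH31, that is 5 and 1 of 9 tested members, beside 17.3% of all probe sets lower and 25.4% higher. The fit of all 18 arrays also called 6 members, 5 lower and 1 higher, beside 2041 of 14823 probe sets lower and 3351 higher. XTH18 was 11.9-fold lower at 6 h than at 1 h (log2 -3.58 ± 0.17 SE, limma adjusted p = 4.92e-08; 0.0028 with 18 arrays). XTH19 was 4.41-fold lower (log2 -2.14 ± 0.23 SE, adjusted p = 1.37e-05). TCH4, whose 6 h arrays all lay below its 1 h arrays, was 3.06-fold lower (log2 -1.61 ± 0.38 SE, adjusted p = 0.00479; 0.0419 with 18 arrays). XTH4 fell by 1.17 and XTH23 by 1.09 on the log2 scale, with adjusted p-values of 0.000737 and 0.000323. XTH31 was 4.50-fold higher (log2 2.17 ± 0.27 SE, adjusted p = 5.7e-05).

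The median change of all probe sets between 1 h and 6 h was 0.13 on the log2 scale, and -0.06 after subtraction of array medians. Of all calls, 59.6% were higher, against 41.1% after that subtraction. Relative to the median of all probe sets, the log2 changes were -3.71 for XTH18, -2.28 for XTH19, -1.75 for TCH4, -1.31 for XTH4, -1.23 for XTH23 and 2.04 for XTH31. The median of the 9 members was -1.09. At 6 h against control the members' median was -0.80 and that of all probe sets 0.04.

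In Col-0 the mean signals of XTH18 were 1517 ± 140 at 1 h, 294 ± 50.2 in controls and 128 ± 22.1 at 6 h (SD, n = 3), and neighbours in that order did not overlap. The same order without overlap held for XTH19, with means of 754 ± 262, 336 ± 62.9 and 164 ± 8.74. XTH31 had the opposite order, also without overlap. For XTH4 and XTH23 the 6 h arrays stood below the rest, while control and 1 h arrays overlapped. For XTH17, TCH4, XTH24 and XTH25 every pair of neighbours overlapped.

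Other measures moved with the same groups. The summed signal of the 3 guard cell markers was 583 to 874 in unwounded Col-0, 546 to 629 after 1 h and 1055 to 1291 after 6 h, and KAT1, a guard cell potassium channel, was the 1 of 3 that rose at 6 h (log2 1.26 ± 0.19, limma adjusted p = 0.000454). The summed signal of the 3 root markers was 120 to 318, 92.0 to 160.5 and 260 to 1172, and 1 of 2 tested, the beta-glucosidase gene PYK10, rose at 6 h (log2 3.01 ± 0.75, adjusted p = 0.00989). PYK10 read 159, 17.6 and 48.5 in controls, dim in arrays B and C, and 1112, 158 and 404 at 6 h. The groups overlapped, and the size of its rise is poorly resolved. Of the 4 mesophyll markers, the light-harvesting gene LHCB3 was higher at 6 h than at 1 h (log2 0.34 ± 0.11, adjusted p = 0.028) and was called there with 18 arrays too. The phloem and xylem marker lists had no call in Col-0. The ratio of 3' to 5' signal for actin, from the revised control probe sets, was 7.28 to 10.7 at 1 h, 4.12 to 6.97 at 6 h and 5.54 to 10.4 in controls, so that the 1 h and 6 h arrays did not overlap. The part of these differences in the XTH changes was not tested.

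Among the 23 other XTH genes, 10 passed the filter. At 1 h 0 were called in the fit of 9 arrays, beside 3.64% of all probe sets higher and 2.2% lower. Their log2 changes there lay between -0.64 and -0.20. At 6 h against control 1 rose and 1 fell, beside 15.4% of all probe sets higher and 13.6% lower. XTH28 rose by log2 0.75 ± 0.20 (limma adjusted p = 0.0143), and XTH9 fell by 1.17 ± 0.27 (adjusted p = 0.0061). Between 1 h and 6 h, 3 rose and 1 fell, beside 25.4% of all probe sets higher and 17.3% lower. The risers were XTH28 (1.39), XTH5 (1.31) and XTH7 (0.57), with XTH5 dim on all 1 h arrays so that the size of its change is unresolved, and XTH9 fell (-0.75). In the order of the RefSeq reference, XTH24, XTH18 and XTH19 are direct neighbours on chromosome 4, and XTH25 and TCH4 on chromosome 5. Of the trio on chromosome 4, XTH18 and XTH19 passed the test in each Col-0 comparison in the fit of 9 arrays, and XTH24 in none. With all 18 arrays fitted, XTH18 and XTH19 passed only between 1 h and 6 h.

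Over all probe sets, 3.64% were higher and 2.2% lower at 1 h. At 6 h against control 15.4% were higher and 13.6% lower, and between 1 h and 6 h 25.4% and 17.3%. Genes that build xyloglucan gave 11 of 14 tested. At 1 h 2 rose and 0 fell: the galactosyltransferase gene MUR3 by log2 1.01 ± 0.22 (limma adjusted p = 0.0189) and the xylosyltransferase gene XXT5 by 0.68 ± 0.13 (adjusted p = 0.00927). At 6 h against control 0 rose and 2 fell, the galactosyltransferase gene XLT2 by 1.05 ± 0.15 and XXT5 by 0.64 ± 0.13 on the log2 scale (adjusted p = 0.000265 and 0.00294). Between 1 h and 6 h 3 rose and 3 fell, with XXT5 at -1.32, MUR3 at -1.28 and XLT2 at -0.82, and CSLC8, a glucan synthase gene dim at 1 h, at 1.30 with its size unresolved. The enzymes that trim xyloglucan side chains gave 3 of 5 tested, of which 0 were called at 1 h. At 6 h the beta-galactosidase gene BGAL10 rose 6.35-fold (log2 2.67 ± 0.24, adjusted p = 1e-05) and the alpha-xylosidase gene XYL1 2.94-fold (1.55 ± 0.22, adjusted p = 0.000257), while the fucosidase gene AXY8 fell by 0.44 ± 0.15 (adjusted p = 0.0389). The BGAL10 controls read 79.5, 85.3 and 71.1, dim in arrays A and C, so the size of its rise is poorly resolved.

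Expansins, which loosen walls without cutting polysaccharides, gave 17 of 25 tested. At 1 h 1 rose and 0 fell, beside 3.64% of all probe sets higher and 2.2% lower. The riser was the expansin-like gene EXLA1 (log2 1.57 ± 0.18, limma adjusted p = 0.000451), which stood 1.81 lower at 6 h than at 1 h. At 6 h against control 2 expansins rose and 3 fell, beside 15.4% of all probe sets higher and 13.6% lower. The risers were EXPA8 (1.69 ± 0.53) and EXPA9 (1.16), and among the fallers were EXLB1 (-1.28) and EXLA2 (-1.24). EXPA8 read 1157, 315 and 144 in controls and 959, 1364 and 1346 at 6 h, so the groups overlapped through control array A. EXLB1 was dim on 6 h arrays A and C and EXLA2 on 6 h arrays B and C, so the sizes of their falls are poorly resolved. Between 1 h and 6 h 6 expansins rose and 4 fell, beside 25.4% of all probe sets higher and 17.3% lower. Both touch genes fell at 6 h, TCH3 by 2.22 and TCH2 by 1.42 on the log2 scale (adjusted p = 6.22e-07 and 0.00233).

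The counts for these lists come from the fit of 9 Col-0 arrays, and the fit of all 18, an alternative added for them after seeing the data, ended many of the calls. At 1 h it called 0 genes of each list, with 2 of the other XTH genes, 4 of the synthesis genes, 0 of the trimming genes, 3 of the expansins and 0 of the touch genes at an unadjusted p below 0.05. At 6 h against control it called XTH28, XXT5, XLT2, XYL1, BGAL10, EXPA5, EXPA9, EXLB1, TCH2 and TCH3, and not XTH9, AXY8, EXPA8 or EXLA2. Between 1 h and 6 h it called the same 6 synthesis and 3 trimming genes, both touch genes, XTH28, XTH5 and XTH7, and 8 expansins, but not XTH9. KAT1 was called there too and PYK10 was not. Over all probe sets the fit of 18 arrays called 4 at 1 h, 2351 at 6 h against control and 5392 between 1 h and 6 h.

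**Figure D3:**
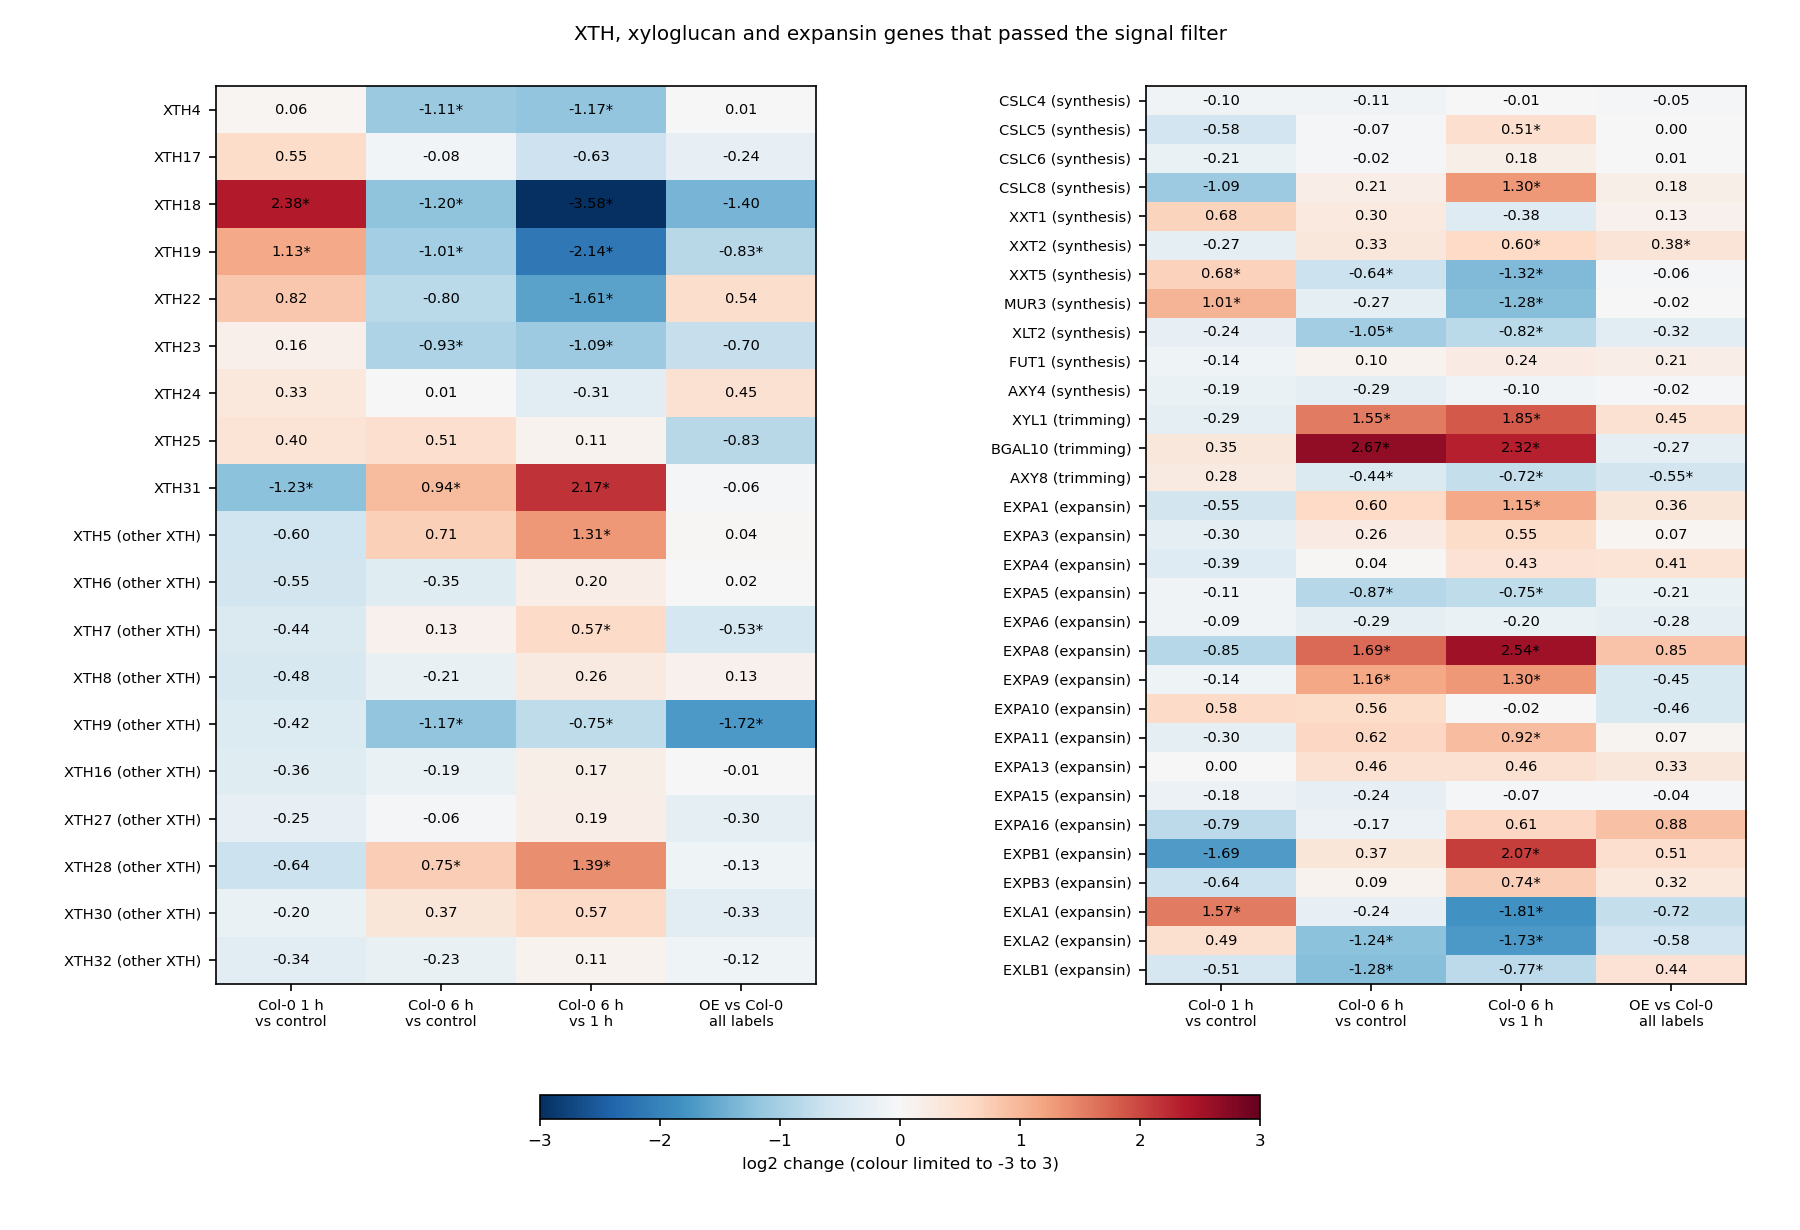
Log2 change of 19 XTH genes (left) and of xyloglucan synthesis, trimming and expansin genes (right) that passed the filter, in 3 comparisons within Col-0 and in OE against Col-0. Red is higher and blue lower, and an asterisk marks an adjusted p below 0.05. BGAL10 at 6 h (2.67, with control arrays A and C dim) and XTH18 between 1 h and 6 h (-3.58) can be read side by side.

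Between genotypes, averaged over the treatment labels so that the label of an OE array does not enter the difference, XTH19 was lower in OE. The standard error and p-value do depend on the labels, as they use the spread within labelled groups. It was 0 of 9 members higher and 1 lower, beside 3.01% of all probe sets higher and 1.83% lower in a fit of all 18 arrays. The 9 OE arrays of XTH19 had a lowest signal of 103, a median of 155 and a highest of 762, and the 9 Col-0 arrays 157, 331 and 1039. The genotypes overlapped. The difference was 1.78-fold (log2 -0.83 ± 0.19 SE, limma adjusted p = 0.0245), and the call was lost without Col-0 1 h array B (0.0547), OE 1 h array B (0.0603), OE control array A (0.0547) or OE control array B (0.0507), and with no term for treatment (0.38). Of all calls in this comparison 62.2% were higher, against 35% with array medians subtracted and 50.3% with quantile normalization.

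XTH18 ran from 36.1 through a median of 86.0 to 1083 in OE, against 108, 277 and 1622 in Col-0. The 3 arrays labelled OE control were dim, at 36.4, 36.1 and 60.1, and lay below every Col-0 array. Its log2 difference was -1.40 ± 0.43 and did not pass the test (limma adjusted p = 0.0724), and with a dim group in it the size is unresolved. XTH23 was at -0.70 ± 0.21 (adjusted p = 0.0724) and XTH24 at 0.45 ± 0.14 (adjusted p = 0.0702). A fit of 15 arrays left out the 3 C arrays of OE, an alternative devised after results of these data were known. It called 4 members: XTH18 (-1.50), XTH19 (-0.85), XTH23 (-0.82) and XTH24 (0.47). Beside them it called 1394 of 14823 probe sets higher and 929 lower, against 446 and 271 with no array left out. The summed signal of the guard cell markers was 903 to 1368 in OE and 546 to 1291 in Col-0, with 2 of 3 markers higher in OE and the part of this in the XTH differences not tested. The members' median difference was -0.24 and that of all probe sets 0.05. Outside the members, XTH9 was lower in OE by 1.72 ± 0.30 (adjusted p = 0.00586) and XTH7 by 0.53 ± 0.10 (adjusted p = 0.0091) on the log2 scale, AXY8 by 0.55 (adjusted p = 0.0496), and XXT2 was higher by 0.38 (adjusted p = 0.0179).

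**Figure D4:**
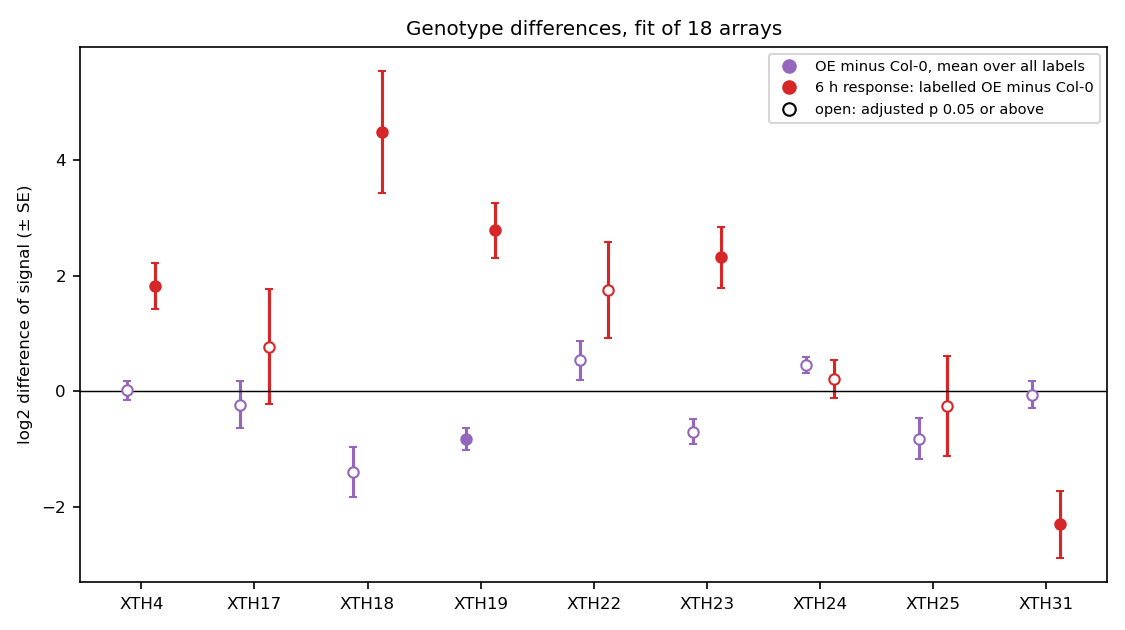
Log2 differences of signal (vertical axis) with standard errors for the 9 tested genes: OE minus Col-0 averaged over treatment labels (purple) and the 6 h response of arrays labelled OE minus that of Col-0 (red), from the fit of 18 arrays. Filled points have an adjusted p below 0.05; the filled purple point is XTH19 at -0.83, and the sizes for XTH18 are unresolved, as its OE control arrays were dim.

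As labelled, the responses of OE and Col-0 to a wound were compared by an interaction term. At 1 h 0 of 9 members were called, beside 0% of all probe sets, with 1 member and 1497 probe sets at an unadjusted p below 0.05. The fit of 15 arrays called 3, XTH31 higher and XTH18 and XTH24 lower, beside 2330 of 14823 probe sets in either direction. For XTH18 the OE control arrays in that fit were dim, at 36.4 and 36.1, and its OE 1 h arrays lay near the 40th percentile. Neither the size nor the direction of its 1 h difference is resolved. At 6 h 5 of 9 were called, XTH4, XTH18, XTH19 and XTH23 higher and XTH31 lower, beside 23.3% of all probe sets in either direction. The arrays labelled OE 6 h read 630, 1083 and 108 for XTH18, 360, 762 and 260 for XTH19, and 246, 273 and 136 for XTH23. For XTH18, 6 h array B stood above every other OE array, and 6 h array A above all but that array and 1 h array C, at 680. The arrays labelled OE 1 h read 86.0, 80.1 and 680 for XTH18. XTH31 read 674, 510 and 704 in arrays labelled OE 6 h and 2736, 2041 and 727 in those labelled OE 1 h. XTH4 read 3437, 3243 and 4883 as labelled OE control and 5966, 9433 and 4262 at OE 6 h. Array C of a label often stood apart from A and B, and these labelled differences and the scatter of OE arrays across labels cannot be told apart.

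Across all 18 arrays, XTH18, XTH19 and XTH23 had the most similar patterns among the tested members. Likeness was taken as the root mean square difference of standardised log2 signals, which is 0 for equal patterns. It was 0.442 for XTH18 with XTH19, 0.475 for XTH18 with XTH23 and 0.514 for XTH19 with XTH23, and the least alike pair was XTH19 with XTH31, at 1.84. Among 14178 genes outside the family, the nearest to TCH4 were AT1G25400 (0.366), HSPRO2 (0.429) and the zinc finger gene STZ (0.471), where the median over all genes was 1.42. The nearest to XTH4 were the auxin response repressor gene IAA7 (0.318), AT5G59850 (0.387) and AT1G22690 (0.404). The nearest to XTH31 were ETP1 (0.412), CYP96A12 (0.415) and PTAC16 (0.427). These are descriptions over arrays that share groups and scaling, and genes are not independent replicates.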

How the data were processed

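Leaf RNA on 18 one-colour ATH1 arrays was processed with MAS5, per the submitters' processing notes, with no version given. The values the authors deposited are linear signal intensity, with the mean of each array near 500 once the extreme 2% at either end is left out. Loci and gene names came from the deposited annotation and RefSeq. A further 90 columns, 5 per array and detection calls among them, were not used, because their names match no sample label.

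Signals were taken to log2. Probe sets at or above the 40th percentile of their array on at least 3 of 18 arrays were kept, 14823 of 22810 after leaving out 64 controls. limma 3.58.1 (R 4.3.3) was fitted with 1 mean per group and a variance trend, two-sided, with Benjamini-Hochberg adjustment and calls at an adjusted p below 0.05. Col-0 comparisons used 9 Col-0 arrays and genotype comparisons all 18. Fits were tested on simulated data for Col-0 1 h against control and OE against Col-0, with spreads taken from the Col-0 groups. The simulation held no scatter of OE arrays across labels and no interaction, so it does not bear on these. Same-letter arrays of Col-0 deviated together at correlations of -0.08 to 0.10, so letters were not taken as pairs.

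Members, lists, designs and alternatives were chosen with earlier results of these data known. All 10 members were named, and genes of other lists only where called, at most 4 per list and comparison, and likeness was listed for 3 members. Other settings were a replicate block, 2 other scalings, log2 of signal plus 16, no filter, the 60th percentile, no variance trend, other sets of arrays, no treatment term, and each array left out.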

Additional observations from a re-analysis of the deposited data

Results flagged for a closer look

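In the arrays as labelled, the change from control to 6 h differed between OE and Col-0 for 5 members by the interaction term of the limma fit of 18 arrays. The log2 difference of the responses was 4.49 ± 1.05 (SE) for XTH18, 2.79 ± 0.47 for XTH19, 2.32 ± 0.53 for XTH23 and 1.83 ± 0.40 for XTH4, and -2.31 ± 0.58 for XTH31, with limma adjusted p-values of 0.012, 0.00924, 0.0111, 0.0101 and 0.0149. The labelled OE responses were 3.29, 1.77, 1.38, 0.71 and -1.36 in that order of genes, and those of Col-0 -1.20, -1.01, -0.93, -1.11 and 0.94. The 3 arrays labelled OE control were all dim for XTH18 (36.4, 36.1 and 60.1), so the sizes of its OE response and of its difference are unresolved in each fit given here. With the C arrays of OE left out the differences were 5.71, 3.30, 2.76, 2.28 and -2.17. With 23.3% of all probe sets called in the same comparison, and 6 of 9 OE arrays nearest to an array of another label, these values describe the labels as deposited.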

How the results depend on the processing

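Of 851 recomputed member changes, 791 kept direction and side of the threshold, 19 lost a call, 12 gained one and 29 changed sign. The tally left out all changes in the 1 h interaction and those not called in the 6 h interaction. The fit of all 18 arrays gave 0 member calls at 1 h and 1 at 6 h, against 3 and 5, and over all probe sets 4 against 866 at 1 h and 2351 against 4294 at 6 h; its larger standard errors come with the OE arrays. In OE against Col-0, 1 member call became 4 with 15 arrays, 0 with no treatment term (3 at an unadjusted p below 0.05), 2 with quantile normalization, and 0 to 3 with 1 array left out. Calls over all probe sets there were 717, 2323 with 15 arrays, 169 with no treatment term and 336 to 1440 with 1 array left out. With 15 arrays, the interactions called 3 members at 1 h and 2330 and 6910 probe sets at 1 h and 6 h, against 0 and 3460; with 1 array left out these were 0 to 416 and 1329 to 5676. With 1 array left out, Col-0 calls over all probe sets at 1 h were 376 to 1196, lowest without 1 h array B. The replicate block changed no count of member calls (3, 5 and 6 in Col-0, 1 in OE against Col-0, 0 and 5 in the interactions) and gave 812 calls at 1 h.

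Sign changes were all of values that did not pass the test: after subtraction of array medians, XTH24 at 6 h (-0.064), XTH25 between 1 h and 6 h (-0.091) and XTH4 between genotypes (-0.062); after quantile normalization, XTH25 between 1 h and 6 h (-0.072); with 15 arrays, XTH31 (0.023) and XTH4 (-0.016) between genotypes. With 1 array left out the ranges were -0.30 to 1.22 and -0.93 to 0.59 for XTH17 at 1 h and 6 h, -0.17 to 0.23 for XTH24 at 6 h, -0.17 to 1.25, -0.058 to 1.35 and -0.16 to 0.43 for XTH25 at 1 h, 6 h and 6 h against 1 h, -0.21 to 0.30 for XTH4 at 1 h, and, between genotypes, -0.19 to 0.13 for XTH31 and -0.086 to 0.11 for XTH4. The cause was not tested. Planned searches of promoter and protein motifs were not run, as no sequences were used here. Dim signals limit XTH15, XTH17 and XTH25.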
